A study of Rattus norvegicus with 24 samples.

Results

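The 9 transcripts of Gad1, Gad2, Slc32a1, Slc6a11, Abat, Gabbr1, Gabbr2, Kctd12 and Kctd16, were followed across brain punches of rats whose fathers had taken morphine or saline. They were chosen by symbol as genes that make, pack, clear or sense the inhibitory transmitter GABA, and all 9 were found among the 37403 genes of each deposited table. The samples were bilateral punches of 2 brain regions, nucleus accumbens (NAC) and ventral tegmental area (VTA), from adult first-generation offspring, at least 60 days old and labelled male. For 60 days the fathers self-administered saline or morphine, whose offspring are called SAL-sired and MOR-sired, and no treatment of the offspring themselves is given. Each sire group gave 7 NAC libraries and 5 VTA libraries. The strain, the mothers, the litters and whether both punches came from 1 animal are not stated in the labels, so every p-value below measures the spread between libraries.

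GABA is made from glutamate by the glutamate decarboxylases GAD67 (Gad1) and GAD65 (Gad2), and the vesicular transporter VGAT (Slc32a1) loads it into synaptic vesicles. After release it is taken up by plasma membrane transporters, of which GAT-3 (Slc6a11) is found mainly on astrocytes, and it is broken down by GABA transaminase (Abat). The metabotropic GABA-B receptor is an obligate pair, in which GABBR1 binds the ligand and GABBR2 couples to G proteins. KCTD12 and KCTD16 are auxiliary subunits that bind GABBR2 and shape the response. The principal cells of the NAC, the medium spiny neurons, are themselves GABAergic, while the VTA holds dopamine neurons together with local GABA neurons that inhibit them.

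Promoter sequences are shown for the 3 genes of GABA synthesis and vesicle loading, whose transcripts varied together over NAC punches, and for Gabbr2, whose transcript varied in the opposite direction. Each is the 250 bases before the annotated start, 5′ to 3′ on the gene's strand, from RefSeq assembly GRCr8. Capitals mark the letters TATAAA, known as the TATA box, and the GC box, a site of zinc finger factors, spelled GGGCGG or its complement.
Gad1 (chr3:75777202-75777451, plus strand): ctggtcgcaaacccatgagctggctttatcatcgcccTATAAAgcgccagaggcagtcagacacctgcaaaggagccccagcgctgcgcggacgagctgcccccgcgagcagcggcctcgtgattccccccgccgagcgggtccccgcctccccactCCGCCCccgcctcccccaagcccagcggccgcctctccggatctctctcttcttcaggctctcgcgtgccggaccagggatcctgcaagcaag
Gad2 (chr17:89671468-89671717, plus strand): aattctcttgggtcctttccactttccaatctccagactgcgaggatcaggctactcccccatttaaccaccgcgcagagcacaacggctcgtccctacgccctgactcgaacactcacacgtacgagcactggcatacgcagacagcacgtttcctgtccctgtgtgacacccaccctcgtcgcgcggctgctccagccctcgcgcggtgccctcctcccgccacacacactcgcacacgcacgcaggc
Slc32a1 (chr3:167686995-167687244, plus strand): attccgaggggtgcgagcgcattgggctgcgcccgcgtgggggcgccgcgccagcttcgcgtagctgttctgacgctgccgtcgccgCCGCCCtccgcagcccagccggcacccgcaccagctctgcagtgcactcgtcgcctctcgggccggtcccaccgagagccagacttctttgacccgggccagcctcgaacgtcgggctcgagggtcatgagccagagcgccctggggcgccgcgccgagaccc
Gabbr2 (chr5:66083696-66083945, minus strand): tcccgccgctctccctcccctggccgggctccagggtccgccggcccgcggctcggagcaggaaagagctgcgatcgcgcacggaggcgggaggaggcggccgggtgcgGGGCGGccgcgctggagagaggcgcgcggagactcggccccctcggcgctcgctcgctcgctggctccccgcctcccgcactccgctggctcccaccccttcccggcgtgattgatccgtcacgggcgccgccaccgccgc
The bases were G or C at 68.4% of positions before Gad1, 62% before Gad2, 73.6% before Slc32a1 and 78.8% before Gabbr2, where the median of 33469 rat promoters of the same length was 51.2%. The number of CpG dinucleotides was 23, 22, 34 and 39 in the same order, with a median of 5 over all promoters. On both strands 5 motifs were searched. The TATA box (TATAAA) is in 12.9% of all promoters, the GC box (GGGCGG) in 30.5%, the homeodomain core (TAATTA) in 4.86%, the cAMP response element (TGACGTCA) in 1.59% and the E-box (CACGTG) in 5.59%. Gad1 held the letters TATAAA 213 bases before the start and a GC box 93 before it. Whether any of these letters act as sites was not tested. Slc32a1 held a GC box 163 before the start and Gabbr2 one 141 before it, and none of the 5 motifs was in the Gad2 window. Of the 9 genes 7 matched a promoter, and the letters of the homeodomain core, the cAMP response element and the E-box were in none of the 7. The windows of Slc6a11, Gabbr1 and Kctd12, not shown, held 4, 4 and 6 GC boxes and no TATAAA.

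Levels are given as CPM, the authors' estimated counts of a gene as a share of 1e6 counts of its library. These counts are scaled per transcript length and so allow genes to be compared. The totals of NAC libraries were 21.9 to 41.3 M counts and those of VTA libraries 23.6 to 43.5 M. Marker sums of 2 neuron types did not overlap between the regions. The 8 dopamine neuron markers summed to 3059.5 to 6891 CPM in VTA and 29.1 to 101 CPM in NAC. The 10 medium spiny neuron markers summed to 571 to 8249.6 CPM in NAC and 286 to 406 CPM in VTA. The NAC punches differed widely among themselves. MOR-sired NAC 4 stood at one end, with the highest medium spiny neuron sum and the lowest sum of 6 cortical glutamatergic markers (146 CPM, the others 667 to 1606 CPM). At the other end, MOR-sired NAC 2, 3 and 7 had medium spiny neuron sums of 571, 869 and 867 CPM. Their cortical glutamatergic sums were 1593, 1606 and 1541 CPM. The share of cortical tissue in each punch was not tested. In VTA 4 libraries labelled male (SAL-sired 5 and MOR-sired 3, 4 and 5) held Xist at 78.9 to 108 CPM and the Y-linked Ddx3y at no more than 0.0720 CPM, where the other 20 libraries held Xist at no more than 0.253 CPM and Ddx3y at 28.7 to 57.5 CPM. These 4 libraries go against their label. The VTA levels, relations and sire differences are given with all 10 libraries, and beside them without these 4, which leaves 4 SAL-sired and 2 MOR-sired libraries.

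The genes of GABA synthesis and vesicle loading were lower in VTA than in NAC. Gad1 averaged 234 ± 78.0 CPM in NAC (SD, n = 14, from 134 to 381) and 97.2 ± 25.1 CPM in VTA (n = 10, from 56.0 to 131). Every VTA library lay below every NAC library for Gad1, and the fitted level in VTA was 0.406 times that in NAC (95% interval 0.310 to 0.533, adjusted p = 2.11e-06 by edgeR's quasi-likelihood test). Gad2 levels were 207 ± 94.6 CPM (NAC) and 102 ± 19.9 CPM (VTA), a ratio of 0.487 (0.347 to 0.683, edgeR adjusted p = 0.000455), and Slc32a1 averaged 209 ± 85.5 and 124 ± 23.9 CPM, a ratio of 0.581 (0.430 to 0.784, adjusted p = 0.00209). For Gad2 and Slc32a1 the ranges overlapped, because the lowest NAC libraries, all MOR-sired, came down to 77.2 and 96.2 CPM. In punches of mixed tissue, fewer cells of a type and less RNA per cell cannot be told apart.

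The genes that clear GABA went the other way. Slc6a11, the astrocytic transporter, averaged 58.5 ± 9.23 CPM in NAC (33.6 to 67.7) and 467 ± 78.0 CPM in VTA (357 to 633). No library of one region came near the other, and the ratio of VTA to NAC was 7.75 (6.77 to 8.88, edgeR adjusted p = 1.43e-17), the largest difference of the 9 genes. The 8 astrocyte markers summed to 2662 to 3109 CPM in NAC and 3931 to 5335 CPM in VTA, and 6 of the 8 were higher in VTA and 2 lower. The part of astrocyte content in the Slc6a11 difference was not tested. Abat, the degrading enzyme, stood at 226 ± 63.5 CPM in NAC punches and 364 ± 52.5 CPM in VTA punches, a ratio of 1.58 (1.32 to 1.89, edgeR adjusted p = 7.18e-05), and 7 of 10 VTA libraries lay above the highest NAC library.

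The receptor subunits and their partners differed in how they divided the regions. Gabbr1, the ligand-binding subunit, stood at 553 ± 34.3 CPM in NAC and 565 ± 40.4 CPM in VTA. Its ratio of VTA to NAC was 0.998 (0.946 to 1.05, edgeR adjusted p = 0.942), which makes it the only one of the 9 without a called difference. Gabbr2, the signalling subunit, stood at 117 ± 40.4 CPM in NAC punches and 80.2 ± 9.70 CPM in VTA punches, a ratio of 0.663 (0.500 to 0.880, adjusted p = 0.0105). All 10 VTA values (60.0 to 91.6 CPM) lay inside the NAC range of 31.0 to 176 CPM. The NAC libraries with the highest medium spiny neuron sums were MOR-sired 4 and 6 and SAL-sired 3 and 7. Gabbr2 was 31.0, 70.2, 81.7 and 90.5 CPM in them, and 98.5 to 176 CPM in the other NAC libraries. The part of tissue make-up in the Gabbr2 difference was not tested. The auxiliary subunits were lower in VTA in every library. Kctd12 was 26.3 ± 3.64 CPM in the NAC and 13.0 ± 1.92 CPM in VTA (ratio 0.481, 0.432 to 0.536, edgeR adjusted p = 1.73e-11), and Kctd16 averaged 14.1 ± 2.74 and 2.67 ± 0.518 CPM (ratio 0.183, 0.158 to 0.213, adjusted p = 2.12e-15).

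**Figure D1:**
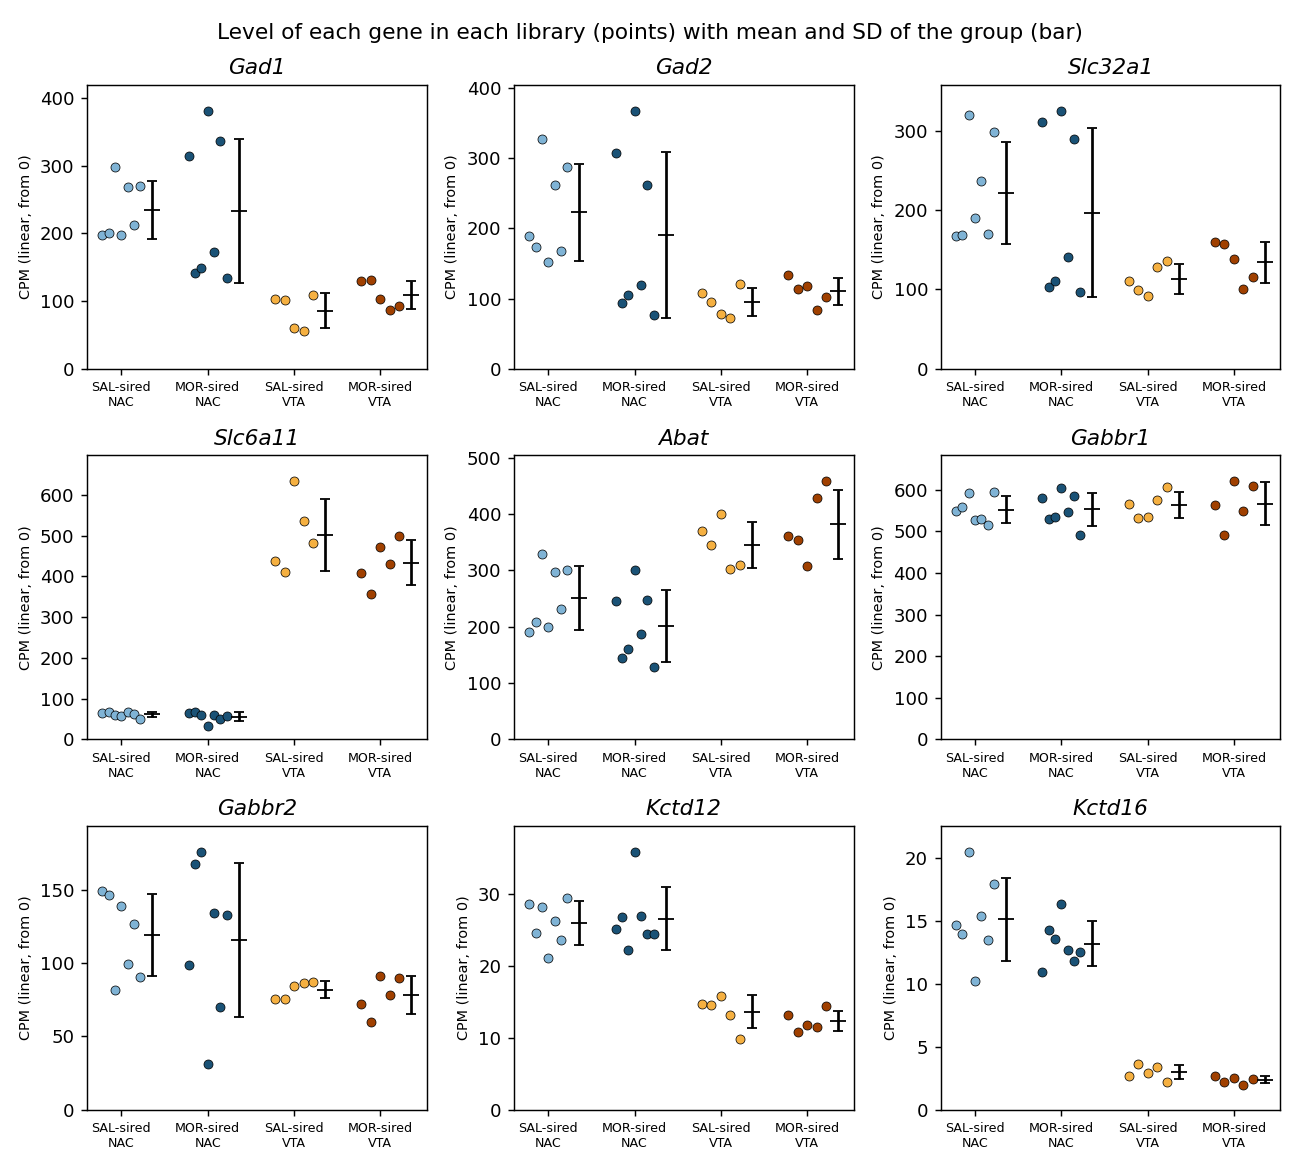
Level of each of the 9 genes in every library (points, linear CPM from 0) for SAL-sired and MOR-sired NAC and VTA, with the mean and SD of each group (bar). Slc6a11 lies at 33.6 to 67.7 CPM in NAC and 357 to 633 CPM in VTA, Gabbr1 lies at 491 to 621 CPM over all libraries, and in Gad1, Gad2, Slc32a1 and Gabbr2 the MOR-sired NAC points spread more widely than the others.

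Of the 9 genes, then, 8 passed the region test (2 higher in VTA, 6 lower), where 69.0% of 20603 tested genes passed (34.3% higher, 34.7% lower), so a regional difference as such does not set these genes apart. The ranges of 4 of the 9 (Gad1, Slc6a11, Kctd12 and Kctd16) did not overlap between regions, against 29.3% of 16302 genes with a mean of at least 1 CPM. The median log2 fold change of VTA over NAC was -0.78 for the 9 genes and 0.02 for all genes. Region, deposited table and library number run together in this series and cannot be told apart. Without the 4 VTA libraries that held Xist, 8 of the 9 again passed, and the VTA means over the other 6 libraries were 96.6 CPM for Gad1, 100.2 for Gad2, 124 for Slc32a1, 464 for Slc6a11, 356 for Abat, 544 for Gabbr1, 75.8 for Gabbr2, 13.7 for Kctd12 and 2.92 for Kctd16.

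The order of the 9 transcripts also differed between regions. In NAC Gabbr1 stood first, above all others in 14 of 14 libraries, and above 99.3% of all genes by its mean. Gad1, Abat, Slc32a1 and Gad2 followed at 234, 226, 209 and 207 CPM. These neighbours were not separated: Gad1 exceeded Abat in 5 of 14 libraries, Abat exceeded Slc32a1 in 11, and Slc32a1 exceeded Gad2 in 9. Gad2 in turn exceeded Gabbr2 in 10 of 14. Gabbr2, Slc6a11, Kctd12 and Kctd16 came next, each above the following gene in at least 13 of 14 libraries. In VTA Gabbr1 was again first, exceeding Slc6a11 in 9 of 10 libraries, and Slc6a11 exceeded Abat in 9 of 10. Abat stood above Slc32a1, and Slc32a1 above Gad2, in 10 of 10 libraries. Gad2 and Gad1 were not separated there (Gad2 higher in 7 of 10), and Gad1 exceeded Gabbr2 in 8 of 10. Kctd12 and Kctd16 were last in each VTA library.

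Within a library, ratios of 2 transcripts need no scaling between libraries. Gad1 over Gad2 averaged 1.22 ± 0.243 in NAC (SD, n = 14) and 0.941 ± 0.123 in VTA (n = 10), while Gad1 over Abat averaged 1.03 ± 0.156 and 0.272 ± 0.0819. Slc6a11 over Abat averaged 0.284 ± 0.104 in NAC and 1.30 ± 0.279 in VTA. Gabbr1 transcripts outnumbered Gabbr2 transcripts in every library, 5.87 ± 4.25 times in NAC (median 4.07) and 7.10 ± 0.562 times in VTA (median 6.98). The NAC mean includes a value of 19.5 in MOR-sired NAC 4. Kctd12 exceeded Kctd16 by 1.89 ± 0.254 times in NAC and 4.96 ± 0.702 times in VTA.

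Other genes of the pathway were put to the same region test, which 69.0% of 20603 tested genes passed (34.3% higher in VTA, 34.7% lower). Passing it as such therefore does not set the following lists apart. Of 14 further genes of GABA handling (transporters, breakdown and precursor supply) 13 were tested: 9 were higher in VTA, 1 was lower and 3 did not pass. The transporter GAT-2 (Slc6a13) differed by 1.18 on the log2 scale (SE 0.28) and succinate semialdehyde dehydrogenase (Aldh5a1), which acts after Abat, by 0.65 (SE 0.05), both higher in VTA. Of 20 partners and effectors of the GABA-B receptor 19 were in the tables and tested: 5 were higher in VTA, 10 lower and 4 did not pass. The auxiliary subunit Kctd8 was lower in VTA by a log2 fold change of -2.16 (SE 0.34), as was the potassium channel subunit Kcnj3 (-2.09, SE 0.24), whereas the channel subunit Kcnj5 was higher (1.48, SE 0.09).

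Over the 14 NAC punches, 4 of the genes rose and fell together with the medium spiny neuron markers. The mean log2(CPM + 1) of the 10 markers correlated with Gad1 at Pearson r = 0.966 (Spearman rho = 0.969), with Gad2 at 0.957 (rho 0.930), with Slc32a1 at 0.973 (rho 0.960) and with Abat at 0.941 (rho 0.952). Each of these 4 Pearson values had a permutation p of 1e-05, the smallest that 100000 permutations can give, and an adjusted p of 5.4e-05 over the 54 relations computed in NAC. Without the 2 libraries farthest from the median of the marker mean (MOR-sired NAC 2 and 4) they were 0.974, 0.957, 0.980 and 0.935. They held within 7 SAL-sired libraries (0.962, 0.928, 0.957 and 0.968) and within 7 MOR-sired libraries (0.977, 0.961, 0.975 and 0.969). Library numbers 1 to 8 gave 0.967, 0.972, 0.973 and 0.948, and numbers 9 to 14 gave 0.981, 0.994, 0.996 and 0.957. The punches share their tissue make-up, so such a relation says nothing of control of one gene by another.

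Gabbr1 and Gabbr2, which form 1 receptor, went in opposite directions along the same axis. Gabbr1 correlated with the marker mean at r = 0.795 (rho = 0.758, permutation p = 0.00076, adjusted 0.00228) over a narrow range of 491 to 605 CPM, with r = 0.804 without the same 2 libraries. Gabbr2 correlated at r = -0.800 (rho = -0.903, permutation p = 0.00029, adjusted 0.0013), and at -0.875 without them. Within sire groups the Gabbr2 value was -0.974 (SAL-sired) and -0.860 (MOR-sired), and within library numbers 1 to 8 and 9 to 14 it was -0.909 and -0.795. In MOR-sired NAC 4, the library with the highest medium spiny neuron sum, Gabbr2 was 31.0 CPM, its lowest value, and Gabbr1 was 605 CPM, its highest in NAC. The sum of the 6 cortical glutamatergic markers ran against the medium spiny neuron sum: it was 146 CPM in MOR-sired NAC 4 and 698 CPM in SAL-sired NAC 3, where medium spiny neuron markers summed to 8249.6 and 6117 CPM. In MOR-sired NAC 2 and 3 it was 1593 and 1606 CPM, where medium spiny neuron markers summed to 571 and 869 CPM. The part of cortical tissue in these relations, that of Gabbr2 among them, was not tested. Slc6a11 (r = -0.515, adjusted permutation p = 0.0903), Kctd12 (0.455, adjusted 0.151) and Kctd16 (0.327, adjusted 0.312) did not pass with the marker mean.

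**Figure D2:**
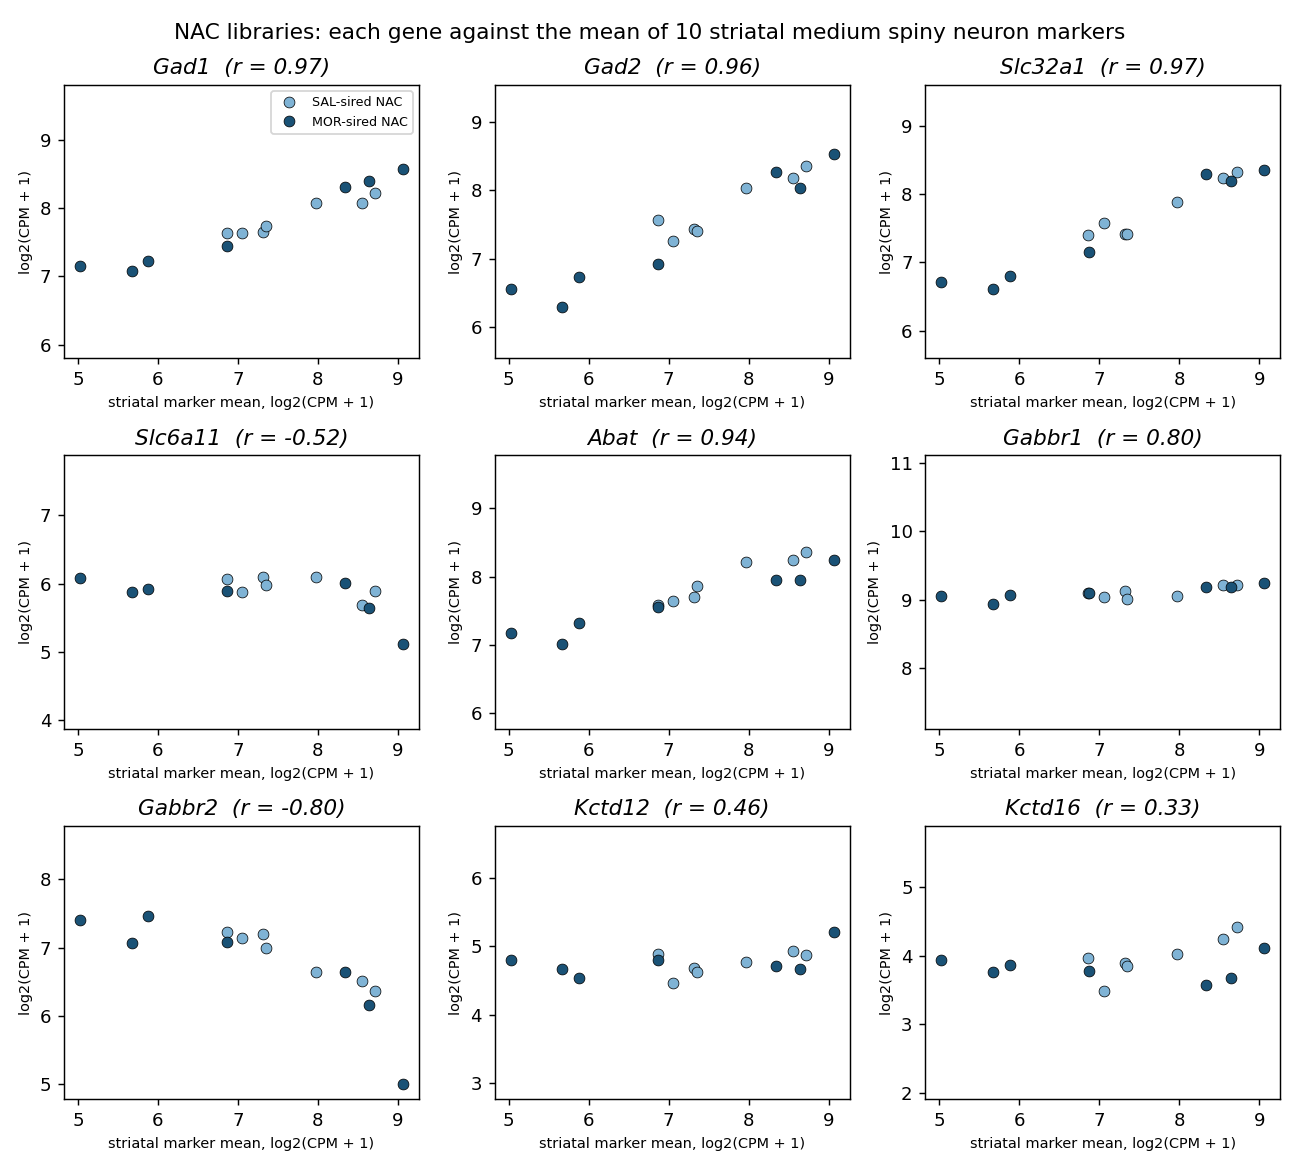
Each gene's log2(CPM + 1) in 14 NAC libraries against the mean log2(CPM + 1) of 10 medium spiny neuron markers, SAL-sired (light) and MOR-sired (dark), with Pearson r in the panel title and the same height of log2 axis in every panel. Gad1, Gad2, Slc32a1 and Abat climb with the markers (r from 0.941 to 0.973), Gabbr2 descends (-0.800), and Gabbr1 climbs by a small amount.

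Among the 9 genes themselves, 19 of 36 pairs passed in NAC. Gad1 and Gad2 correlated at r = 0.969, Gad1 and Slc32a1 at 0.974, and Gad2 and Slc32a1 at 0.979, each with an adjusted permutation p of 5.4e-05. Gabbr2 was negatively related to Gad1 (r = -0.848), Gad2 (-0.761), Slc32a1 (-0.767), Abat (-0.707), Gabbr1 (-0.694) and Kctd12 (-0.698). The value with Kctd12, an auxiliary subunit that binds GABBR2, had an adjusted permutation p of 0.0221 and a rho of -0.385, and was -0.472 (adjusted 0.238) without MOR-sired NAC 4 and 6. Its one positive relation, with Slc6a11, was 0.849 (adjusted permutation p = 0.00631) and rested on 2 libraries: without MOR-sired NAC 4 and 6 it was 0.334, and within library numbers 1 to 8 it was 0.131. Kctd12 and Kctd16 correlated at 0.671 (rho 0.741, adjusted p 0.0206), and at 0.623 (adjusted 0.0746) without MOR-sired NAC 4 and SAL-sired NAC 4. Slc6a11 was the only gene related to the astrocyte marker mean in NAC, at r = 0.667 (rho 0.631, adjusted permutation p = 0.0154). That value was 0.495 (adjusted 0.203) without MOR-sired NAC 3 and 4, 0.111 within SAL-sired and 0.714 within MOR-sired NAC. In VTA none of the 9 passed with the astrocyte mean. Slc6a11 there had r = 0.315 (adjusted permutation p = 0.656), and 0.312 over the libraries without Xist. In all, 26 of the 54 NAC relations passed by Pearson r (19 positive, 7 negative). Of the 26, 23 also passed by Spearman rho and 20 also passed without the 2 farthest libraries. The share of all gene pairs that would pass the same test was not computed, in NAC or in VTA. Such counts therefore do not set the 9 genes apart.

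In VTA 5 of 54 relations passed by Pearson r, and none of the 5 passed without the 2 farthest libraries. Only 1 of the 5, Gad1 with Gad2, also passed by Spearman rho. Gad1 and Gad2 correlated at r = 0.912 over 10 libraries (rho = 0.915, permutation p = 0.00014, adjusted 0.00756), with 0.799 (adjusted 0.252) without SAL-sired VTA 3 and 4, the libraries lowest in both genes. Gad1 and Gad2 followed the mean of 8 midbrain GABA neuron markers (r = 0.826 and 0.854, adjusted permutation p = 0.0432 and 0.0335), which came to 0.373 and 0.620 without the same 2 libraries. Gad1 and Slc6a11 went in opposite directions (r = -0.831, adjusted p 0.0335 by permutation, and -0.598 without the 2). With TMM-scaled CPM that value was -0.808 and did not pass (adjusted permutation p = 0.0672). Gabbr1 and Gabbr2, opposed in NAC, were positively related in VTA (r = 0.844, adjusted permutation p = 0.0335), with 0.589 without MOR-sired VTA 2 and 3 and 0.529 with TMM-scaled CPM. The difference between the regions in this relation was not tested. Within VTA library numbers 29 to 37 the values were 0.927 for Gad1 with Gad2 and 0.802 for Gabbr1 with Gabbr2, and numbers 25 to 28 are too few for a value. Over the 6 libraries without Xist, Gad1 and Gad2 correlated at 0.952, Gad1 and Slc6a11 at -0.926, Gabbr1 and Gabbr2 at 0.721, and the marker mean with Gad1 and Gad2 at 0.975 and 0.974. By an exact permutation test their adjusted p-values over the 54 relations were 0.0750, 0.150, 0.309, 0.0938 and 0.0750, so that none passed. With 6 libraries few permutations exist, and the smallest exact p of the 54, 0.00278, came to an adjusted 0.0750. This test could hardly have called a relation, so the missing calls do not show that the relations were lost.

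**Figure D3:**
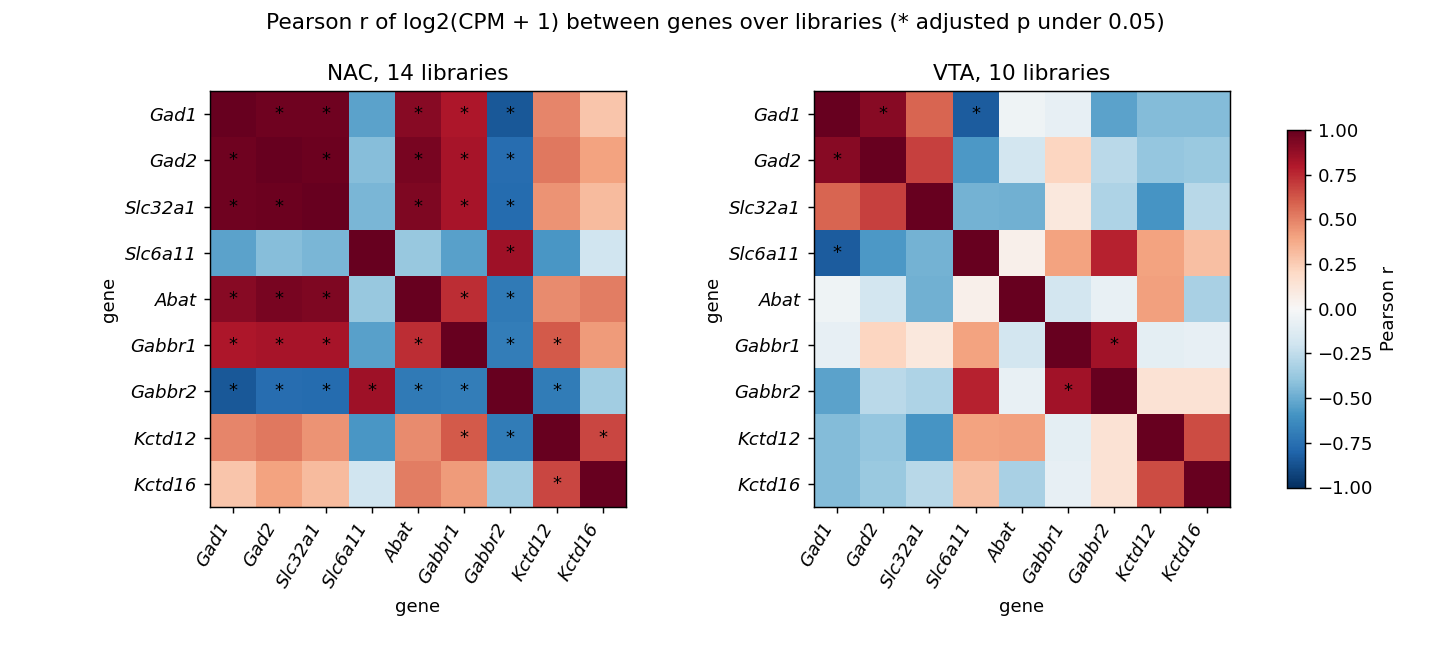
Pearson r of log2(CPM + 1) between each 2 of the 9 genes over 14 NAC libraries (left) and 10 VTA libraries (right), from -1 (blue) to 1 (red), with an asterisk where the adjusted permutation p was under 0.05. In NAC the block of Gad1, Gad2, Slc32a1, Abat and Gabbr1 is red and the Gabbr2 row is blue except with Slc6a11, and 19 of 36 pairs carry an asterisk, against 3 of 36 in VTA.

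The sire comparison asks whether the father's morphine intake is seen in the offspring's transcripts. In NAC none of the 9 genes passed it, and 0% of 18220 tested genes did (smallest adjusted p 0.56 by edgeR). At an unadjusted p under 0.05 by edgeR there were 0 of the 9 genes and 6.18% of all genes. DESeq2 called 4 and limma-voom 52 of all genes, again with none of the 9. By limma-voom 1 of the 9, Abat, had an unadjusted p under 0.05 (0.0248). Gad1 had a lowest, median and highest level of 197, 212 and 298 CPM in SAL-sired and 134, 173 and 381 CPM in MOR-sired NAC. All 7 MOR-sired values lay outside the SAL-sired range, 3 above it and 4 below it, so that means of 235 ± 42.7 and 233 ± 107 CPM were nearly equal. The ratio of MOR-sired to SAL-sired was 0.978 (95% interval 0.681 to 1.40). Gad2 went from 152 over 189 to 327 CPM in SAL-sired and from 77.2 over 119.9 to 367 CPM in MOR-sired libraries (lowest, median, highest), a fitted ratio of 0.843 (0.502 to 1.42). Slc32a1 had 167, 190.0 and 319.5 CPM against 96.2, 141 and 325 CPM, a ratio of 0.876 (0.554 to 1.39). For Gad2 and Slc32a1, 4 MOR-sired libraries lay below the SAL-sired range and 1 above it. Medium spiny neuron markers summed to 1684 to 6117 CPM in SAL-sired and 571 to 8249.6 CPM in MOR-sired NAC, a spread that moved with these 3 genes. The log2 fold changes of Gad2 and Slc32a1 depended on the fit: they were -0.25 and -0.19 by edgeR, -0.61 and -0.44 by limma-voom with sample quality weights, and -0.09 and -0.02 with the mean of the medium spiny neuron markers as a covariate, with no call in any of the 3.

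Abat had the lowest ratio of the 9 in NAC. Its lowest, median and highest levels were 190.3, 231 and 329 CPM in SAL-sired and 128, 187 and 301 CPM in MOR-sired NAC, and 4 MOR-sired libraries lay below the SAL-sired range. The log2 fold change was -0.33 (SE 0.19, ratio 0.794, 0.597 to 1.06), with an adjusted p of 0.864 by edgeR. With the marker mean as a covariate it was -0.18 (unadjusted p = 0.0183, adjusted 0.240). Gabbr1 had 514, 549.8 and 595 CPM against 491, 547 and 605 CPM, a ratio of 0.991 (0.923 to 1.06), the narrowest interval of the 9. Gabbr2 had 81.7, 127 and 149 CPM against 31.0, 133 and 176 CPM, a ratio of 0.967 (0.615 to 1.52). Its log2 fold change of -0.05 turned to 0.12 without MOR-sired NAC 4 and came to -0.43 with the marker covariate (unadjusted p = 0.0225, adjusted 0.252). Slc6a11 levels were 50.4 to 67.7 CPM in SAL-sired and 33.6 to 66.9 CPM in MOR-sired NAC (ratio 0.897, 0.742 to 1.08), and its log2 fold change went from -0.16 to -0.25 with the marker covariate by edgeR (unadjusted p = 0.0312, adjusted 0.275). Kctd12 levels were 21.2 to 29.5 and 22.3 to 35.9 CPM (ratio 1.01, 0.876 to 1.17), and Kctd16 levels 10.2 to 20.5 and 10.9 to 16.4 CPM (ratio 0.862, 0.710 to 1.05). The sire groups overlapped for all 9 genes, where 0.0753% of 15946 genes with a mean of at least 1 CPM did not overlap.

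In VTA again none of the 9 genes passed, with 0% of 19923 genes called (smallest adjusted p 0.223 by edgeR). At an unadjusted p under 0.05 by edgeR there were 0 of the 9 and 5.31% of all genes. DESeq2 called 27 genes and limma-voom 0, with none of the 9 among them. The unadjusted count depended on the fit: it was 2 of the 9 by DESeq2. By edgeR without SAL-sired VTA 5 it was 5 of the 9, with a smallest adjusted p of 0.709. No share of all genes is given for these 2 fits. Gad1 was 102, 101, 59.6, 56.0 and 109.6 CPM in the SAL-sired libraries and 129.8, 131, 103, 86.9 and 93.1 CPM in the MOR-sired libraries. SAL-sired VTA 3 and 4 were the lowest and MOR-sired VTA 1 and 2 the highest, with overlap between. The ratio of MOR-sired to SAL-sired was 1.35 (0.949 to 1.93), with an adjusted p of 0.953 by edgeR. Gad2 was 108, 95.2, 78.0, 72.7 and 120.1 CPM against 134, 113, 117, 83.6 and 102 CPM, a ratio of 1.23 (0.955 to 1.59). Slc32a1 was 111, 99.2, 91.8, 129 and 136 CPM against 159, 157, 138, 101 and 116 CPM, a ratio of 1.26 (0.971 to 1.64). In both genes the highest values were again those of MOR-sired libraries, 1 of them above the SAL-sired range for Gad2 and 3 for Slc32a1.

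These 3 VTA values depended on which libraries entered. Without the 4 libraries that held Xist, which leaves 4 SAL-sired and 2 MOR-sired libraries, the log2 fold changes were 0.88 for Gad1 (0.44 with all libraries), 0.64 for Gad2 (0.30) and 0.72 for Slc32a1 (0.34). Their unadjusted p-values were then 0.0232, 0.00799 and 0.00306 and their adjusted p-values by edgeR 0.738, 0.639 and 0.557. The 2 MOR-sired libraries that remained both have numbers from 25 to 28, whose totals of 23.6 to 27.3 M counts were below the 36.7 to 43.5 M of numbers 29 to 37. Within numbers 25 to 28 the log2 fold changes were 0.52, 0.44 and 0.75, and within numbers 29 to 37 they were 0.37, 0.20 and 0.03. No library of numbers 25 to 28 held Xist, while all MOR-sired libraries of numbers 29 to 37 did. Library number and Xist thus cannot be told apart in the MOR-sired VTA libraries. The 8 midbrain GABA neuron markers summed to 21.1 to 34.5 CPM in SAL-sired and 31.2 to 40.2 CPM in MOR-sired VTA. None was at 0 in all libraries, and 2 averaged under 1 CPM in each sire group. Means were higher in MOR-sired VTA for 8 of 8, where 47.4% of all genes had a higher mean. By edgeR 4 had an unadjusted p under 0.05, as did 5.31% of all genes, and 0 were called. Without the 4 libraries that held Xist the sums were 21.1 to 31.3 CPM (SAL-sired) and 38.1 and 39.5 CPM (MOR-sired). The 3 serotonin neuron markers, of cells that neighbour the VTA, summed to 0.842 to 93.8 CPM in SAL-sired and 99.7 to 263 CPM in MOR-sired VTA. With the mean of the dopamine neuron markers as a covariate, the log2 fold changes of Gad1, Gad2 and Slc32a1 were 0.43, 0.28 and 0.34. The part of midbrain GABA neuron and serotonin neuron content in these values was not tested.

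The other 6 genes gave the following VTA values. Slc6a11 was 438, 411, 633, 537 and 483 CPM in SAL-sired and 408, 357, 471, 429 and 499 CPM in MOR-sired VTA, a ratio of 0.916 (0.779 to 1.08), with 2 MOR-sired libraries below the SAL-sired range. Abat was 370.0, 345, 399.9, 303 and 310.0 CPM against 361, 355, 307, 429 and 459 CPM, a ratio of 1.18 (0.989 to 1.40) with an adjusted p of 0.951 by edgeR, the smallest of the 9 in VTA. MOR-sired VTA 4 and 5 stood above all SAL-sired ones for Abat, and both held Xist. Gabbr1 was 567, 532, 536, 575 and 608 CPM against 564, 491, 621, 548 and 609 CPM, a ratio of 1.06 (0.975 to 1.16). Gabbr2 was 75.6, 75.6, 84.8, 86.4 and 87.2 CPM against 72.4, 60.0, 91.6, 78.3 and 89.9 CPM. Its fitted ratio, on TMM-scaled counts, was 1.01 (0.893 to 1.14), while that of the plain CPM means was 0.958, so no direction is given. Kctd12 was 14.8, 14.6, 15.8, 13.1 and 9.90 CPM against 13.3, 10.9, 11.8, 11.6 and 14.4 CPM, a ratio of 0.962 (0.815 to 1.13). Kctd16, the scarcest of the 9, was 2.71, 3.60, 2.93, 3.38 and 2.23 CPM against 2.69, 2.20, 2.52, 1.98 and 2.43 CPM, a ratio of 0.842 (0.673 to 1.05). Without the 4 libraries that held Xist the log2 fold changes were -0.24 for Slc6a11 (-0.13 with all 10), 0.18 for Abat (0.23), 0.09 for Gabbr1 (0.09), -0.13 for Gabbr2 (0.02), -0.12 for Kctd12 (-0.06) and -0.22 for Kctd16 (-0.25), with none called. The sire groups overlapped for all 9 genes, where 1.25% of 16319 genes did not overlap.

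**Figure D4:**
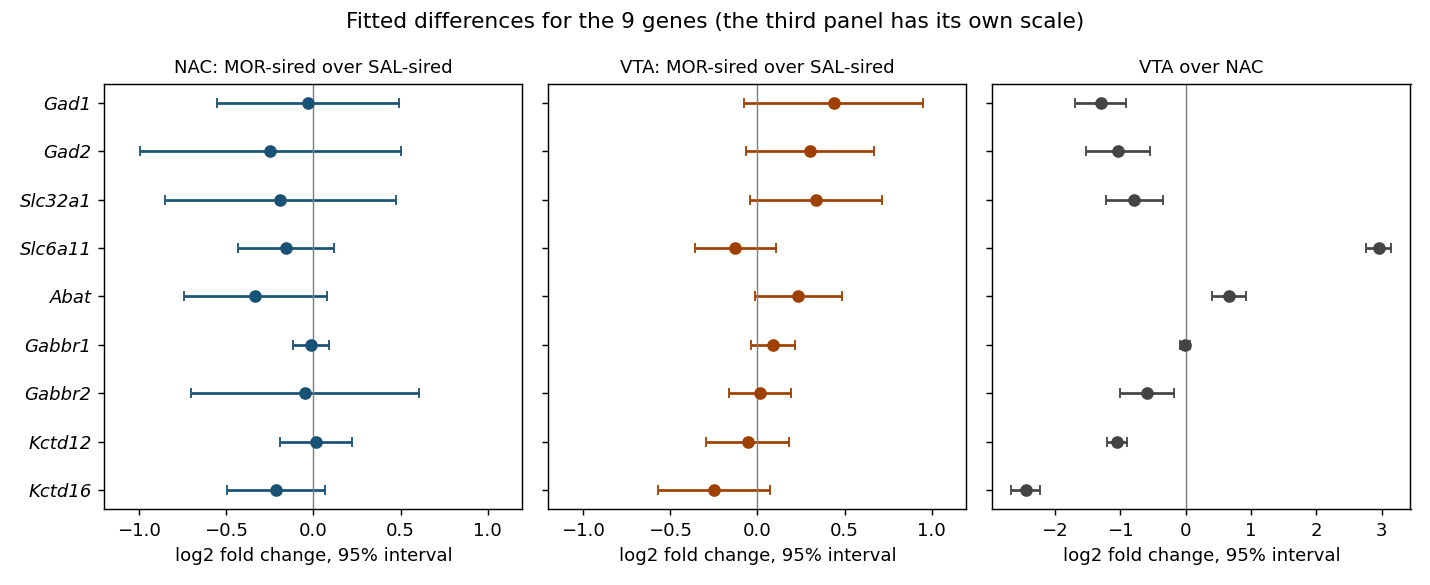
Fitted log2 fold change with its 95% interval (edgeR's quasi-likelihood test) for the 9 genes: MOR-sired over SAL-sired in NAC (7 against 7 libraries), the same in VTA (5 against 5), and VTA over NAC on a wider scale. Every sire interval holds 0, and among the region differences only that of Gabbr1 does.

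Counted together, 1 of the 9 genes had a higher and 8 a lower fitted mean in MOR-sired NAC, where 49.5% of all genes had a higher and 50.5% a lower one (median log2 fold change -0.16, all genes -0.00). In MOR-sired VTA 6 had a higher and 3 a lower mean, where 47.4% of all genes had a higher and 52.6% a lower one (median 0.09, all genes -0.01). These counts include values near 0 and carry no test: by plain CPM means they were 2 higher and 7 lower in NAC and 5 higher and 4 lower in VTA. The fitted signs of Gad1, Gabbr1, Gabbr2 and Kctd12 in NAC turned under other fits or without 1 library, so no direction is read from the counts. An interaction term tested whether the sire effect differed by region, and 0 of the 9 genes and 0% of 20603 genes passed by edgeR (4.78% of all genes and 1 of the 9 at an unadjusted p under 0.05). That gene was Abat, with -0.33 in NAC, 0.23 in VTA and an interaction of 0.58 on the log2 scale (SE 0.25, unadjusted p = 0.0322, adjusted 1.00). The unadjusted count depended on the fit: by limma-voom it was 4 of the 9 (Gad1, Gad2, Slc32a1 and Abat), with a smallest adjusted p of 0.924. By edgeR without the VTA libraries that held Xist it was 0 of the 9, with Abat at 0.52 (unadjusted p = 0.122). That run called 7 of all genes, none of them among the 9. No share of all genes at an unadjusted p under 0.05 is given for these 2 fits. With all libraries Gad1, Gad2 and Slc32a1 had edgeR interactions of 0.48, 0.56 and 0.54, with intervals of -0.27 to 1.24, -0.39 to 1.51 and -0.31 to 1.39. Without the libraries that held Xist they were 0.92, 0.90 and 0.92.

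Ratios within a library were compared between sire groups by an exact permutation test, two-sided, for 6 ratios in each region with adjustment over the 12. None passed, with a smallest possible p of 0.000583 in NAC and 0.00794 in VTA. Gad1 over Abat was 0.894 to 1.03 in SAL-sired NAC (median 0.919) and 0.927 to 1.36 in MOR-sired NAC (median 1.04), a log2 difference of 0.22 (exact p = 0.0396, adjusted 0.167). Gad1 over Gad2 was 0.912 to 1.30 (median 1.04) against 1.02 to 1.73 (median 1.41), a difference of 0.30 (exact p = 0.0507, adjusted 0.167), and Kctd12 over Kctd16 was 1.38 to 2.08 against 1.65 to 2.30, a difference of 0.21 (exact p = 0.0466, adjusted 0.167). In VTA Slc6a11 over Abat was 1.18, 1.19, 1.58, 1.77 and 1.56 in SAL-sired and 1.13, 1.01, 1.53, 0.999 and 1.09 in MOR-sired libraries, a difference of -0.34 (exact p = 0.0556, adjusted 0.167). All MOR-sired values but the 1.53 of library 3 lay below every SAL-sired value. The other 8 ratio differences had exact p-values of 0.0717 to 0.684. Without the 4 libraries that held Xist the VTA difference was -0.40 for Slc6a11 over Abat, 0.75 for Gad1 over Abat (0.24 with all 10) and 0.22 for Gabbr1 over Gabbr2 (0.08 with all 10), each with an exact p of 0.133 and an adjusted p of 0.229. The 4 SAL-sired and 2 MOR-sired libraries left have too few splits for any exact p under 0.05. These p-values therefore decide nothing.

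**Figure D5:**
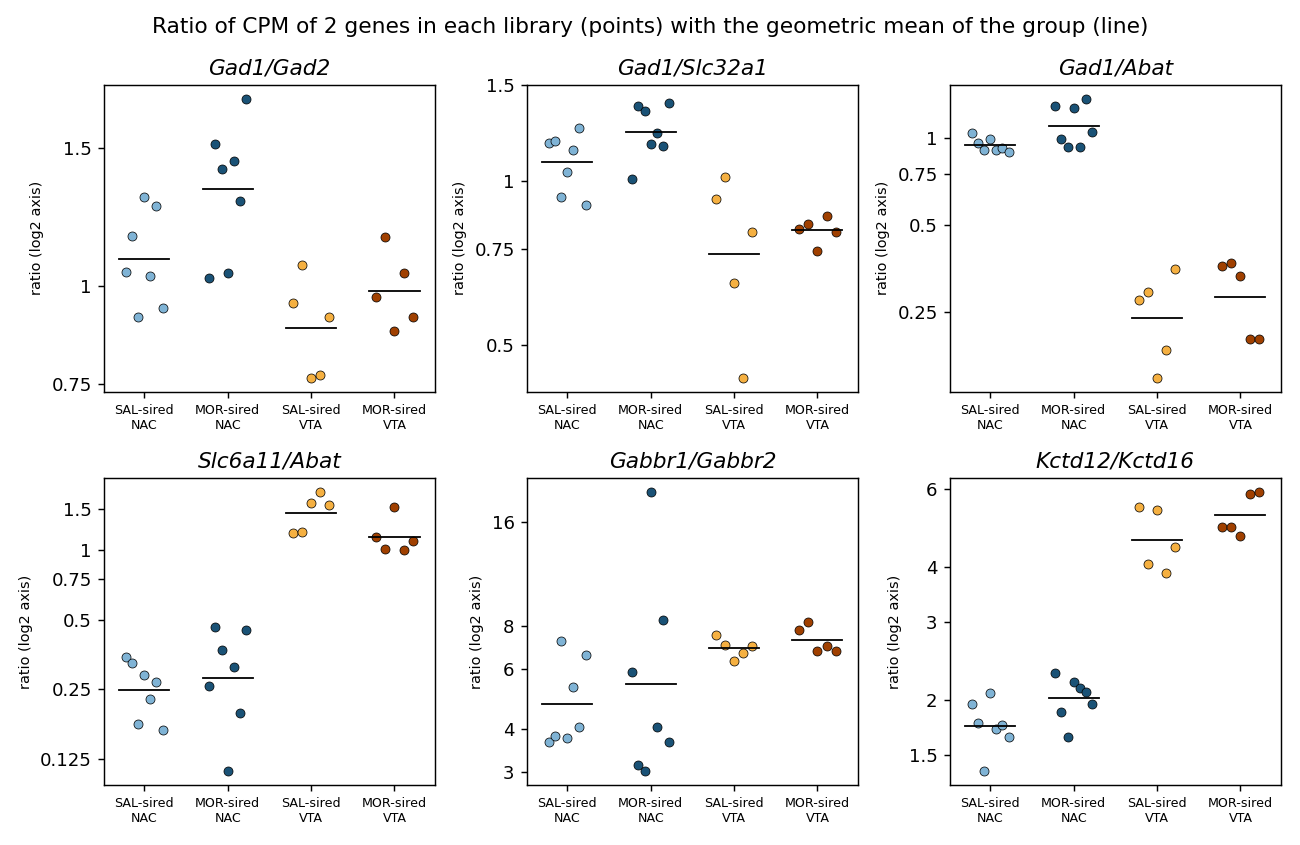
Ratio of the CPM of 2 genes in each library (points, log2 axis) with the geometric mean of each group (line), for 6 pairs of the 9 genes in SAL-sired and MOR-sired NAC and VTA. Gad1 over Abat, Slc6a11 over Abat and Kctd12 over Kctd16 lie apart between regions in every library, the sire groups overlap in each panel, and MOR-sired NAC 4 stands alone at a Gabbr1 over Gabbr2 ratio of 19.5.

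The wider pathway lists gave no sire call in either region. Of 13 tested genes of GABA handling in NAC, 0 passed at an adjusted or unadjusted p under 0.05, with fold changes of -0.05 for Slc6a13 and -0.04 for Aldh5a1 on the log2 scale. Of 14 in VTA, 0 passed and 1 had an unadjusted p under 0.05: Slc6a13, which is also found in meninges, at -1.54 (SE 0.59, adjusted p = 0.907 by edgeR). Among 19 GABA-B partners and effectors 0 passed in either region, with Kctd8 at -0.17 in NAC and -0.15 in VTA, Kcnj3 at -0.07 and -0.28, and Kcnj5 at -0.18 and 0.03.

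Among genes with a mean of at least 5 CPM, those whose levels most resembled each of the 9 over libraries were looked up by Pearson r of log2(CPM + 1), as a description over 14 NAC libraries (11612 genes searched) and 10 VTA libraries (11730 genes). In NAC the nearest 2 were Hacl1 (0.986) and Actn2 (0.986) for Gad1, Dcc (0.994) and Fndc3b (0.984) for Gad2, and Gaa (0.989) and Lingo3 (0.988) for Slc32a1. Those of Gabbr2 were Ptpn3 (0.994) and Ywhag (0.993), and those of Gabbr1 were Sik3 (0.963) and Radil (0.953). Slc6a11 was nearest to Foxred2 (0.957) and Ackr3 (0.944), and Abat to Gpr101 (0.970) and Ptprm (0.967). Kctd12 was nearest to Gria2 (0.918) and Cul5 (0.910), and Kctd16 to Zbtb11 (0.901) and Sntb2 (0.866). In VTA the nearest were Crabp1 (0.924) and Hspa2 (0.917) for Gad1, Asb4 (0.863) and Pkp4 (0.857) for Gad2, and Syt9 (0.827) and Snord33 (0.819) for Slc32a1. Slc6a11 was nearest to Gpld1 (0.969) and Acsf2 (0.959), Abat to Tmem144 (0.919) and C6h14orf28 (0.915), Gabbr1 to Foxa2 (0.971) and Plxna1 (0.968), and Gabbr2 to Ppp6r1 (0.977) and Plekhm1 (0.974). Kctd12 was nearest to Knop1 (0.961) and Aplf (0.942), and Kctd16 to Crtac1 (0.966) and Efnb2 (0.959). No gene was among the nearest 2 of the same member in both regions. All of these values share the libraries and their tissue make-up.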

How the data were processed

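RNA sequencing of 24 punch libraries was deposited as 2 tables, one per region. Per the file names, the authors' deposited values are estimated counts made from transcript abundances scaled to each library's total, and per the submitters' processing notes Trim Galore, kallisto and DESeq2 were used. The sources used here give no versions, genome build, annotation or strand setting. Per the labels' protocols the kit was directional.

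Symbols were matched to RefSeq GRCr8 (37403 of 37403). The estimated counts were rounded, filtered (filterByExpr) and tested with edgeR 4.0.16 (R 4.3.3; quasi-likelihood, TMM, Benjamini-Hochberg over all genes kept, adjusted p under 0.05), within each region for sire and over all 24 libraries for region and interaction. SEs are log2 fold changes divided by the root of F. The code was tested on simulated data. Alternatives were DESeq2, limma-voom, RLE scaling, no filter, covariates and left-out libraries. CPM values are plain unless said, and the estimates allow no counting interval. Replicate numbers are shared by the groups, but the labels do not say that a number marks an animal or litter.

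The 9 genes are all reported. Of other lists the first 3 in written order that passed the filter were named, with the 2 genes of highest r per member and region. Some genes that this rule names are not reported here. The members and lists were chosen with earlier results of these data known.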

Additional observations from a re-analysis of the deposited data

Results flagged for a closer look

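Groups of 5 or 7 libraries were searched for a single library far from its group, in 60 searches over levels and ratios of the 9 genes, of which chance would give about 1 in 20. There were 3 such values. Kctd12 in MOR-sired NAC 4 was 35.9 CPM, the highest of its group, with 27.0 CPM next, a gap of 0.657 of the group's range. The ratio of Gabbr1 to Gabbr2 in the same library was 19.5, with 8.33 next (gap 0.679 of the range). This library also had the highest sum of medium spiny neuron markers (8249.6 CPM) and the lowest of cortical glutamatergic markers (146 CPM) in NAC, and the part of these in both values was not tested. The ratio of Slc6a11 to Abat in MOR-sired VTA 3 was 1.53, with 1.13 next (gap 0.752 of the range). That library is 1 of the 4 in VTA that held Xist.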

How the results depend on the processing

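None of the 9 genes was called for sire, or for its interaction with region, under any alternative run, and 8 were called for region under each. Limits: small fitted values changed sign, and the cause was not tested. In NAC (log2, MOR-sired over SAL-sired) limma-voom gave 0.0097 for Gabbr2 and -0.013 for Kctd12, no filter -0.0039 for Kctd12, the medium spiny neuron covariate 0.10 for Gad1 and 0.019 for Gabbr1, the library number covariate 0.045 for Gabbr2 and -0.015 for Kctd12, libraries 1 to 8 alone 0.24 for Gabbr2 and -0.077 for Kctd12, and libraries 9 to 14 alone 0.065 for Gad1. In VTA the dopamine marker covariate gave -0.014 for Gabbr2, leaving out the Xist libraries -0.13 for Gabbr2, libraries 25 to 28 alone 0.0012 for Slc6a11 and -0.043 for Gabbr2, and libraries 29 to 37 alone 0.010 for Kctd12. The region difference of Gabbr1 was 0.0088 with RLE scaling, 0.011 with no filter and 0.0033 with limma-voom. The interaction was 0.0010 for Kctd16 with no filter, -0.00090 for Gabbr2 with limma-voom, and -0.074, -0.074 and 0.0075 for Slc6a11, Gabbr2 and Kctd16 without the Xist libraries. Splits by library number were chosen after seeing the data.

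Leaving out 1 library at a time gave ranges across 0 in NAC for Gad1 (-0.19 to 0.060), Gabbr1 (-0.037 to 0.0015), Gabbr2 (-0.19 to 0.12) and Kctd12 (-0.068 to 0.050), and in VTA for Gabbr2 (-0.033 to 0.064). In NAC Gad2 ranged from -0.48 to -0.12 and Slc32a1 from -0.35 to -0.080. The same held for the region difference of Gabbr1 (-0.027 to 0.016), the interactions of Slc6a11 (-0.046 to 0.13), Gabbr2 (-0.088 to 0.22), Kctd12 (-0.14 to 0.029) and Kctd16 (-0.10 to 0.054), and the log2 ratio differences of Gabbr1 over Gabbr2 in NAC (-0.12 to 0.33) and Gad1 over Slc32a1 in VTA (-0.046 to 0.26). The count of called VTA relations was 3 with TMM-scaled CPM, 0 without the 2 farthest libraries and 0 without the Xist libraries, the last chosen after seeing the data. Few permutations exist for the libraries left without Xist, so that last count says little of the relations. With the number as a replicate block, 0 of the 9 genes were called in either region, with 0.47 for Gad1 in VTA and -0.44 and -0.32 for Gad2 and Slc32a1 in NAC. In a check of pairing, same-numbered libraries gave r of -0.38 to 0.18 in NAC and -0.19 to 0.16 in VTA. There 0 of 7 and 2 of 5 pairs were closest to their own number. These r are not of whole-library levels, on which libraries of the same group correlated at 0.974 to 0.992. Of the values under other settings, 324 kept their direction and side of the threshold, and 19 values of single correlations lost their call. Some correlations are counted under several settings in these 19, the run without the Xist libraries among them. Estimated counts give no counting error, so depth limits could not be computed.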
